A study of Homo sapiens with 6 samples.

Results

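Complex I, or NADH:ubiquinone oxidoreductase, was described here by the transcripts of its nuclear-encoded subunits and of the factors that assemble it. Members were the protein-coding rows whose symbol has the NDUF root, letters and a number, together with 5 assembly factors of other names, TIMMDC1, ECSIT, ACAD9, FOXRED1 and NUBPL. This gave 51 genes of the 58656 rows in the table, made up of 38 subunits and 13 assembly factors. The study used MDA-MB-231 cells, a long-established line of human triple-negative breast cancer, grown in DMEM with serum. The Control group received DMSO for 9 hours, and the Treatment group received 5 µM mitocurcumin (MC), a curcumin derivative directed to mitochondria, for 9 hours. Each group had 3 libraries of polyadenylated RNA, and the comparison asked how the transcripts of these genes differed after the compound.

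Complex I is the entry point of electrons from NADH into the mitochondrial respiratory chain. It is L-shaped. Its matrix arm takes electrons from NADH through a flavin and a chain of iron-sulfur clusters to ubiquinone, and its membrane arm pumps protons across the inner membrane. The membrane arm is built on ND subunits encoded by mitochondrial DNA, so the complex needs the products of both genomes, and dedicated assembly factors build it in stages and are absent from the finished enzyme.

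The libraries held 23146822 to 29104681 counts each. Their first principal component separated the groups with 51.6% of the variance, and on the next, with 16.2%, control replicate 1 lay apart at 31.3 from the other controls at -17.1 and -17.2. The line's mesenchymal markers were high, with VIM at 2160 ± 22.3 CPM (counts scaled to a common library total) in the control group and 2340 ± 37.3 after MC (SD, n = 3). The estrogen and progesterone receptor genes ESR1 and PGR had 0 to 9 counts in every library and were not tested. The other 4 luminal markers read were tested. ERBB2 went from 41.6 ± 6.17 to 32.6 ± 2.67 CPM and GATA3 from 13.7 ± 0.812 to 9.25 ± 0.578 CPM, both called lower. EPCAM and CDH1, at 22.3 and 1.68 CPM in the control group, were not called. The epithelial keratins KRT8 and KRT18 were at 233 and 165 CPM in the control group and 210 and 157 CPM after MC. Of 10 markers of leukocytes, endothelium, fibroblasts and liver, 5 were too low to test, and the summed level of the 10 was 28.2 to 34.8 CPM in the control libraries and 21.0 to 25.1 CPM in the MC libraries. ALB, CD3E, CDH5 and VWF were among the 5, with 0 to 4 counts a library. PECAM1, an endothelial gene, went from 12.9 ± 1.83 to 6.42 ± 0.358 CPM. The part of these markers in the results was not tested. The labels give biological replicates but name no separate cultures, so a p-value covers only the spread among these 6 libraries. In bulk RNA, fewer cells of a type and less RNA per cell cannot be told apart. Rows of the mitochondrial chromosome numbered 0, and the mitochondrially encoded ND subunits were not analysed here.

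The complex I genes changed little and in both directions. All 51 members passed the low-count filter, and 12 of them (23.5%) differed at an adjusted p under 0.05 in the edgeR quasi-likelihood fit (p adjusted by Benjamini-Hochberg over all genes), where 32.5% of the 16481 genes tested did. Of these 12, 7 rose and 5 fell, while 14.7% of all tested genes were higher and 17.8% lower. Every member lay between -0.44 and 0.45 in log2 fold change, MC over control. The median size of the change, without its sign, was 0.14 over the members and 0.23 over all genes tested. Among called genes it was 0.32 for the 12 members and 0.43 for the 5363 genes. At an adjusted p under 0.01, 2 members were left, NDUFS1 and NDUFAF2, where 22.2% of all tested genes passed. No overlap between the groups was seen for 17 members (33.3%), 8 higher and 9 lower after MC, where 44.9% of all tested genes had none (21.2% higher and 23.7% lower).

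**Figure D1:**
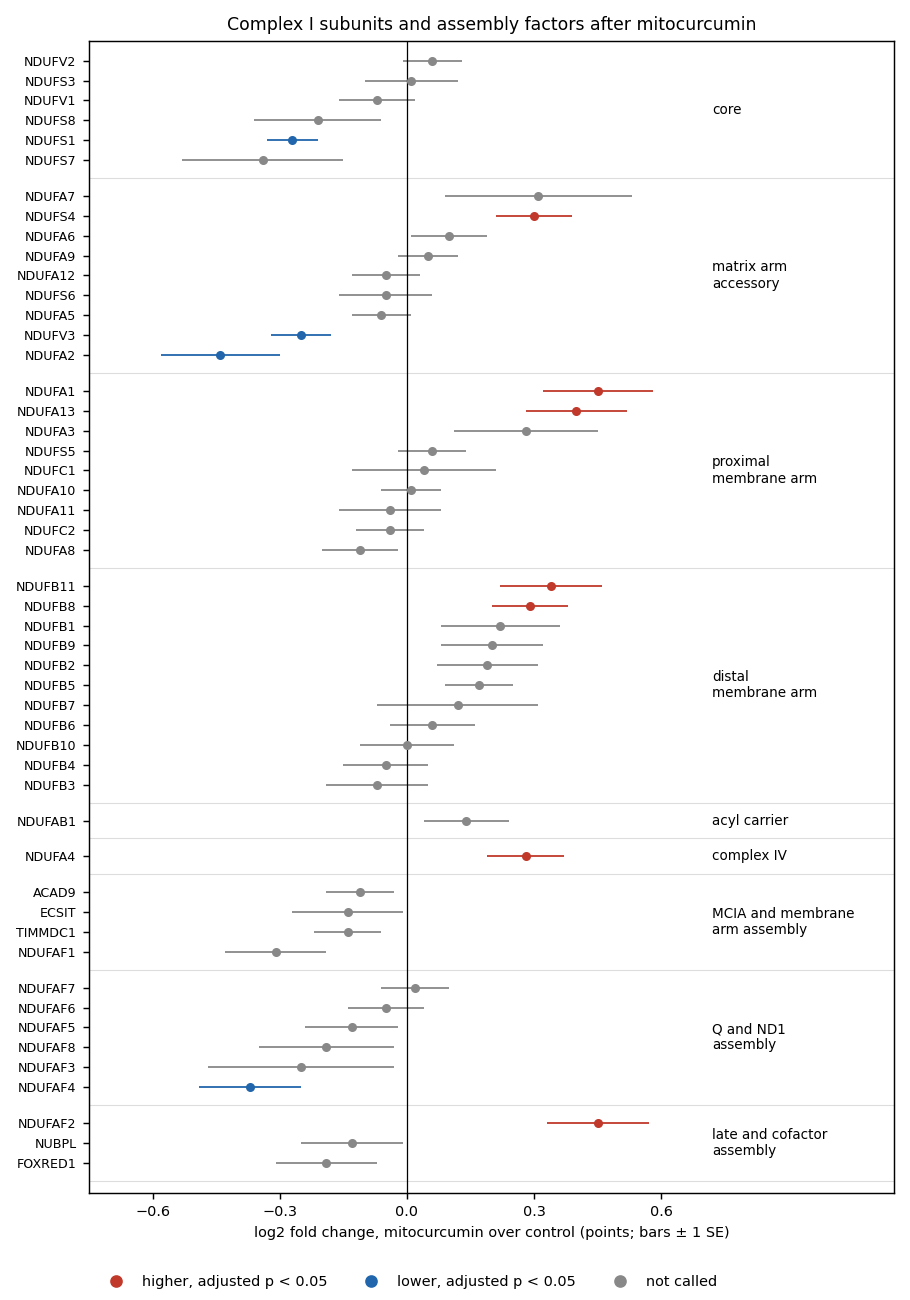
Log2 fold change of 50 of the 51 members, MC over control (x axis; points are edgeR estimates, bars ± 1 SE, 3 and 3 libraries), in blocks by their place in the complex or their step in assembly. The fitted changes run from -0.44 for NDUFA2 to 0.45 for NDUFAF2 and NDUFA1, and the called members of the membrane arm lie to the right of 0.

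By place in the enzyme, calls of both directions were found in the matrix arm and rises in the membrane arm. Of the 16 subunits of the matrix arm, 4 fell, NDUFA2, NDUFS1 and NDUFV3 among them, and 1 rose (NDUFS4), with a median of -0.05. Of the 20 nuclear-encoded subunits of the membrane arm, 4 rose (NDUFA1, NDUFA13, NDUFB11 and NDUFB8), with a median of 0.09. None of the 20 was lower in edgeR, DESeq2 or limma voom, and at an unadjusted p under 0.05 edgeR had 5 higher and 0 lower. The median over all genes tested was -0.0059. The shares called stand beside 17.8% lower and 14.7% higher among all genes tested. Whether the arms differed from each other was not tested, and the lists were drawn up with earlier results known.

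Short promoter stretches show the sequence upstream of called members from both directions of change. They were read from RefSeq promoters on GRCh38.p14, which cover 250 bases before and 50 after a start, and 44 of the 51 members had an entry. The motifs were chosen after the values were seen and were searched on both strands. The capitals mark CCGGAAG, a core of the sites of ETS factors such as GABPA, or its reverse complement. NDUFA1 (chrX:119871732-119871831, plus strand) and NDUFA13 (chr19:19516125-19516224, plus strand) rose, while NDUFS1 (chr2:206159545-206159644, minus strand) and NDUFAF4 (chr6:96897992-96898091, minus strand) fell. All are printed 5′ to 3′ on the gene's strand.
NDUFA1: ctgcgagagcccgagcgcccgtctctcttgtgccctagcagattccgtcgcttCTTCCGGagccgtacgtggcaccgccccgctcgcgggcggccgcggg
NDUFA13: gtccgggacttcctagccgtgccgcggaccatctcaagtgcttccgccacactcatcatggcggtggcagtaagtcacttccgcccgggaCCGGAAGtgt
NDUFS1: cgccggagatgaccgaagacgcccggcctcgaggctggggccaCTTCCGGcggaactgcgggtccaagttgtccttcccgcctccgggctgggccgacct
NDUFAF4: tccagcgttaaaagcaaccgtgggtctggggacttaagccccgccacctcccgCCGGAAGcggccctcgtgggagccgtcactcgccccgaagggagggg
The same 7 letters were present in 8 of the 44 members (18.2%) and in 12.2% of the 27305 genes with a promoter entry. For this and the following motifs, those genes were not limited to protein-coding or expressed ones, as the members are. The shares are therefore not like for like. The other 4 with it, NDUFAF8, NDUFB7, NDUFS3 and TIMMDC1, were not called. Some stretches also take in the start of a gene on the other strand. In that of NDUFS1 it is EEF1B2, which starts 165 bases from NDUFS1 and was called higher. The stretches of NDUFA1 and NDUFAF4 hold the starts of RNF113A, which was not called, and KLHL32, which was not tested.

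A further motif, AAGATGGCG, which holds the core recognised by the regulator YY1, was present in 7 members (15.9%). Of all genes with an entry, expressed here or not, 2.14% held it anywhere in the promoter stretch. In the members its first base was base 10 to 26 counted from a start in the promoter table. The table lists several starts for some genes, and the NDUFB8 start used is not the outermost end of its gene row. The capitals mark it in the called ones, NDUFS4 (chr5:53560650-53560679, plus strand) and NDUFB8 (chr10:100529835-100529864, minus strand), both of which rose.
NDUFS4: tgcctgcagcAAGATGGCGgcggtgtcaat
NDUFB8: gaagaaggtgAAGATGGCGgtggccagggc
The others with this motif were not called: NDUFA6, NDUFA7 and NDUFA9 changed by 0.10, 0.31 and 0.05, and NDUFAF8 and NDUFS7 by -0.19 and -0.34. GCGCATGCG, most of the palindrome of nuclear respiratory factor 1, was found in 6 members (13.6%, against 2.34% of genes), NDUFA5, NDUFA8, NDUFAF5, NDUFB4, NDUFS6 and NDUFS7, none of which was called. TGATGCAA, an ATF4-type element, was in 0 of the 44 and in 1.08% of genes. No match of 1 motif overlapped that of another in these members, and a match is a description of the sequence only.

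The core of the matrix arm, which carries the cofactors, had 2 falling subunits of 7 (28.6%) in edgeR, NDUFS1 among them. Of all genes tested 17.8% were lower and 14.7% higher. DESeq2 called 1 of the 7 lower and limma voom 2. None was called higher by edgeR, DESeq2 or limma voom (0 at an unadjusted p under 0.05 in edgeR). The median change was -0.18, within a range of -0.34 to 0.06. Their summed level was 416, 417 and 407 CPM in control replicates 1 to 3 and 385, 379 and 374 CPM in MC replicates 1 to 3. The sums did not overlap between the groups. NDUFS1, at the highest level of the 7, weighed most in them. Taken singly, NDUFV1, NDUFV2, NDUFS3 and NDUFS8 overlapped between the groups, so the sums do not stand for each subunit.

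NDUFS1 is the largest core subunit and carries iron-sulfur clusters on the path from the flavin (Entrez 4719, chromosome 2, 206114817 to 206159444, minus strand, GRCh38, as are all positions). Its level was 148, 157 and 158 CPM in the control libraries and 126, 133 and 125 CPM in the MC libraries. All MC libraries lay below all controls. The mean went from 154 ± 5.49 to 128 ± 4.19 CPM (SD, n = 3), a log2 fold change of -0.27 ± 0.06 (SE; edgeR adjusted p = 0.00125). It was the only member called under all 16 alternative settings, where its adjusted p reached at most 0.0145.

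A further 5 core subunits did not pass the test. NDUFS7, which bears the last iron-sulfur cluster before ubiquinone, had 5.25, 3.56 and 4.35 CPM in the control libraries and 3.52, 3.32 and 3.53 CPM after MC, so its groups were separated by a narrow gap (-0.34 ± 0.19, edgeR adjusted p = 0.201). NDUFS8, a further cluster carrier, had 20.3, 14.0 and 12.4 CPM against 14.0, 12.6 and 13.8 CPM (-0.21 ± 0.15). Its control mean rested on replicate 1, and without that library its change was 0.03.

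NDUFV1, the subunit that binds NADH and the flavin, had 60.9, 53.2 and 45.5 CPM in the control libraries and 50.9, 51.7 and 49.5 CPM after MC (-0.07 ± 0.09, or 0.04 without control replicate 1). NDUFV2, its partner at the electron entry, had 95.0, 109 and 108 CPM against 114, 103 and 107 CPM (0.06 ± 0.07). NDUFS3 had 24.7, 20.3 and 19.4 CPM against 22.0, 19.9 and 22.7 CPM (0.01 ± 0.11). The groups of these 3 genes overlapped.

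Among the 9 accessory subunits of the matrix arm, which carry no cofactor of the electron path, 2 fell and 1 rose, with a median of -0.05. NDUFA2, a small subunit with a thioredoxin-like fold (Entrez 4695, chromosome 5, 140645285 to 140647630), had 13.3, 10.2 and 10.2 CPM in the control libraries and 7.56, 8.82 and 8.45 CPM after MC. Control replicate 1 stood highest, and the groups did not overlap. The mean went from 11.3 ± 1.82 to 8.28 ± 0.649 CPM, a change of -0.44 ± 0.14 (edgeR adjusted p = 0.0229) and the largest fall of any member. Without control replicate 1 it was -0.30 with an edgeR adjusted p of 0.077. Leaving out MC replicate 1, 2 or 3 gave adjusted p-values of 0.12, 0.0545 and 0.0645. The row overlaps TMCO6, which was not called (0.10).

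NDUFV3, an accessory subunit beside the NADH site (Entrez 4731, chromosome 21, 42893309 to 42913299), had 46.2, 47.1 and 44.5 CPM in the control libraries and 38.6, 39.8 and 37.7 CPM after MC. Every MC library was below every control. The change was -0.25 ± 0.07 (edgeR adjusted p = 0.0155). Without control replicate 2, MC replicate 1 or MC replicate 3 the change was -0.23 in each case, with edgeR adjusted p-values of 0.0659, 0.0665 and 0.0706.

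NDUFS4 was the only matrix arm subunit called higher (Entrez 4724, chromosome 5, 53560639 to 53683338). It helps to hold the NADH-oxidising part in place, and its inherited loss causes Leigh syndrome. It had 33.9, 40.5 and 39.3 CPM in the control libraries and 42.4, 50.2 and 47.5 CPM after MC. Replicate 1 was the lowest in either group, and the groups did not overlap. The change was 0.30 ± 0.09 (edgeR adjusted p = 0.0154). It was 0.26 without MC replicate 2 and 0.29 without MC replicate 3, with edgeR adjusted p-values of 0.0844 and 0.0654.

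The membrane arm gave 4 of the 7 rises. Its 9 proximal accessory subunits, next to the joint with the matrix arm, had a median of 0.04, and its 11 distal ones a median of 0.17, from -0.07 to 0.34. Fitted changes were above 0 in 14 of the 20. The summed level was 541, 569 and 483 CPM in control replicates 1 to 3 and 550, 579 and 586 CPM in MC replicates 1 to 3. These sums overlapped between the groups, and control replicate 3 was the lowest library.

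NDUFA1, a small X-linked proximal subunit (Entrez 4694, chromosome X, 119871832 to 119876662), had 25.2, 38.3 and 29 CPM in the control libraries and 35.9, 44.2 and 45.9 CPM after MC. Control replicate 2 was above MC replicate 1, and NDUFA1 was the only called member whose groups overlapped. Its mean went from 30.8 ± 6.73 to 42.0 ± 5.39 CPM, a change of 0.45 ± 0.13 (edgeR adjusted p = 0.0195). The call was lost without control replicate 1 (0.32, adjusted p = 0.0663), control replicate 3 (0.41, 0.0786), MC replicate 2 (0.42, 0.0691) or MC replicate 3 (0.37, 0.0888).

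NDUFA13, also known as GRIM-19 and linked to cell death and STAT3 besides complex I (Entrez 51079, chromosome 19, 19516225 to 19528198), had 23.5, 19.5 and 16.0 CPM in the control libraries and 24.4, 26.6 and 26.9 CPM after MC. The highest control lay just under the lowest MC library. The change was 0.40 ± 0.12 (edgeR adjusted p = 0.0168). Without control replicate 3 it was 0.29 with an adjusted p of 0.0767, and without MC replicate 2 or 3 the adjusted p was 0.0689 and 0.0745.

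The 2 called distal subunits were NDUFB8 and NDUFB11. NDUFB8, whose protein is often used as a blot marker of assembled complex I (Entrez 4714, chromosome 10, 100523729 to 100529923), had 37.4, 37.4 and 30.6 CPM in the control libraries and 46.4, 41.6 and 40.8 CPM after MC. The groups did not overlap, and control replicate 3 was the lowest library. The change was 0.29 ± 0.09 (edgeR adjusted p = 0.023), with adjusted p-values of 0.0926 without control replicate 3 and 0.113 without MC replicate 1.

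NDUFB11, a further X-linked subunit (Entrez 54539, chromosome X, 47142216 to 47145491), had 16.9, 14.2 and 12.8 CPM in the control libraries and 19.3, 17.9 and 18.5 CPM after MC. No library of the groups overlapped. The change was 0.34 ± 0.12 (edgeR adjusted p = 0.0314), and without control replicate 2 or 3 or MC replicate 1, 2 or 3 the adjusted p was 0.0693, 0.118, 0.103, 0.0629 and 0.0879. It overlaps RBM10 on the opposite strand, which was not called (-0.07).

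The closest distal subunit that missed the threshold was NDUFB5, with 49.9, 50.2 and 47.1 CPM in the control libraries and 51.5, 53.6 and 60.0 CPM after MC. Its groups did not overlap, and its change was 0.17 ± 0.08 (edgeR adjusted p = 0.106). NDUFAB1, the mitochondrial acyl carrier protein that sits in both arms, changed by 0.14 and was not called.

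NDUFA4 carries a complex I name but is now placed in complex IV, cytochrome c oxidase (Entrez 4697, chromosome 7, 10931943 to 10940153). It had 38.1, 41.2 and 35.5 CPM in the control libraries and 41.4, 49.0 and 49.3 CPM after MC. The gap between the groups was small, between control replicate 2 and MC replicate 1. The change was 0.28 ± 0.09 (edgeR adjusted p = 0.0206), lost without control replicate 3 (0.0809), MC replicate 2 (0.0931) or MC replicate 3 (0.113). Without NDUFA4 the subunits had 5 rises and 4 falls among 37.

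**Figure D2:**
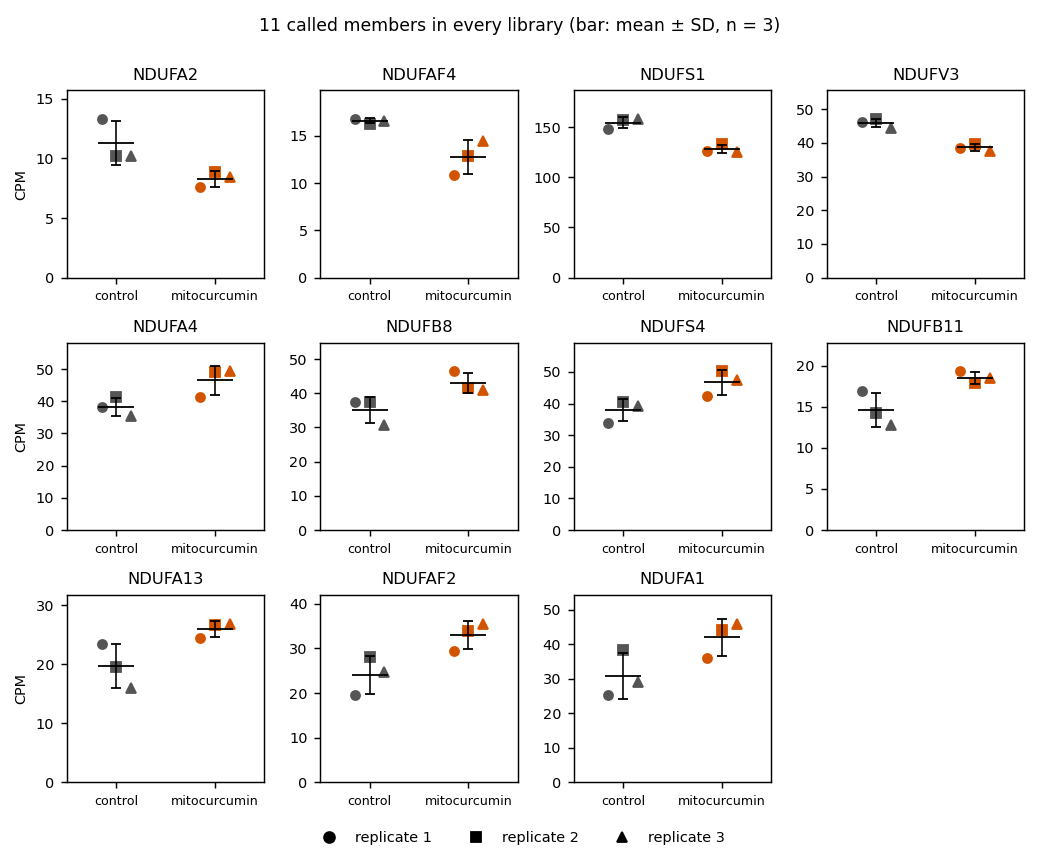
Level of 11 called members in each of the 3 control and 3 MC libraries (y axis, CPM, starting at 0; symbols mark the replicate number, bars the mean ± SD). Groups are separate in every panel except NDUFA1, where control replicate 2 at 38.3 CPM lies above MC replicate 1 at 35.9 CPM.

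The assembly factors mostly had fitted changes below 0, and few passed the test. Of the 13, 1 rose (NDUFAF2) and 1 fell (NDUFAF4), and 11 had a fitted change below 0, where 8349 of the 16481 genes tested did. The median was -0.14, from -0.17 to -0.10 with 1 library left out at a time. Over the 38 subunits, of which 6 rose and 4 fell, it was 0.04, from -0.00 to 0.09 with 1 library left out. The summed level of the assembly factors was 265, 277 and 265 CPM in control replicates 1 to 3 and 248, 262 and 260 CPM in MC replicates 1 to 3. The difference between assembly factors and subunits was not tested.

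NDUFAF2 had the largest change of any assembly factor (Entrez 91942, chromosome 5, 60945205 to 61153026). It is a paralog of the subunit NDUFA12 that binds a late assembly intermediate. Its level was 19.5, 28.0 and 24.6 CPM in the control libraries and 29.4, 33.9 and 35.5 CPM after MC. Replicate 1 was the lowest in either group, and the groups did not overlap. The mean went from 24.0 ± 4.26 to 33.0 ± 3.19 CPM, a 1.37-fold rise (0.45 ± 0.12, edgeR adjusted p = 0.00722). Without MC replicate 3 it was 0.40 with an edgeR adjusted p of 0.0519, and the call was kept in the other 15 alternatives. NDUFA12 itself was not called, at -0.05.

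NDUFAF2 starts head to head with ERCC8, a DNA repair gene on the other strand, with 135 bases between the starts. The bases between them (chr5:60945071-60945204, plus strand, GRCh38.p14) are shown because both genes rose, and the stretch holds none of the 4 motifs.
NDUFAF2: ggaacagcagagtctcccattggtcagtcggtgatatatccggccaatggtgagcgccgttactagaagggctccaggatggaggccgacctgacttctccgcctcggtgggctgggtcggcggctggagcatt
ERCC8 went from 24.4 ± 2.69 to 29.6 ± 1.84 CPM (0.28 ± 0.10, edgeR adjusted p = 0.0433).

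NDUFAF4, which with NDUFAF3 builds the part of the enzyme that holds the ubiquinone site (Entrez 29078, chromosome 6, 96889315 to 96897891), had 16.8, 16.3 and 16.6 CPM in the control libraries and 10.9, 12.9 and 14.5 CPM after MC. The controls were tight, the MC libraries were spread, and the groups did not overlap. The change was -0.37 ± 0.12 (edgeR adjusted p = 0.0237). Without MC replicate 1 it was -0.26 with an edgeR adjusted p of 0.159, and the adjusted p was 0.069 without control replicate 3 and 0.085 without MC replicate 2. NDUFAF3 had 8.14, 5.10 and 3.88 CPM against 4.33, 5.03 and 4.99 CPM, and its change of -0.25 ± 0.22 became 0.09 without control replicate 1.

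The MCIA complex builds the proximal membrane arm around the mitochondrially encoded subunit ND2, and TIMMDC1 acts beside it. NDUFAF1, ECSIT and ACAD9, the MCIA factors among the members, and TIMMDC1 were all fitted below 0. None of the 4 passed the test. At an unadjusted p under 0.05 edgeR had 1 of them lower, and DESeq2 and limma voom called 0. NDUFAF1 came closest, with 14.2, 15.7 and 13.7 CPM in the control libraries and 11.6, 10.9 and 12.7 CPM after MC. Its groups did not overlap, and the change was -0.31 ± 0.12 (edgeR adjusted p = 0.0523). It was called in 3 of the 16 alternatives, with an edgeR adjusted p of 0.0277 without control replicate 1. The adjusted p was 0.193 without control replicate 2 and 0.211 without MC replicate 2, at a change of -0.24 in both.

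TIMMDC1 had 33.2, 33.0 and 35.2 CPM against 30.1, 32.4 and 29.6 CPM (-0.14 ± 0.08). ACAD9, a relative of the acyl-CoA dehydrogenases that serves in MCIA, had 32.4, 33.0 and 32.5 CPM against 30.8, 29.4 and 30.2 CPM (-0.11 ± 0.08). The MC libraries of both genes lay below the controls, by margins that did not pass the test. ECSIT, the remaining MCIA factor among the members, overlapped between groups, with 16.2, 11.2 and 14.4 CPM against 12.5, 13.4 and 12.1 CPM (-0.14 ± 0.13). Its change was -0.01 without control replicate 1 and -0.27 without control replicate 2. The summed level of the 4 genes was 96.0, 92.9 and 95.8 CPM in control replicates 1 to 3 and 85.0, 86.1 and 84.6 CPM in MC replicates 1 to 3, without overlap. MCIA factors outside the members are not in this sum. Of these, TMEM126B went from 54.4 ± 3.76 to 60.4 ± 0.396 CPM without overlap (0.15 ± 0.07, edgeR adjusted p = 0.109). TMEM186 and COA1 were fitted at -0.02 and -0.05 and were not called.

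The factors that modify or equip single subunits gave no call. NDUFAF5, which hydroxylates an arginine of NDUFS7, had 13.7, 15.7 and 15.9 CPM in the control libraries and 14.0, 13.9 and 13.6 CPM after MC (-0.13 ± 0.11). Its partner NDUFAF8 had 7.88, 6.38 and 6.02 CPM against 5.50, 6.48 and 5.85 CPM (-0.19 ± 0.16). NDUFAF7, an arginine methyltransferase that acts on the complex, had 35.0, 39.0 and 35.1 CPM against 34.2, 38.2 and 38.0 CPM (0.02 ± 0.08). The groups of these 3 genes overlapped.

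NDUFAF6, needed early for the subunit ND1, had 25.8, 30.5 and 32.3 CPM in the control libraries and 28.6, 28.7 and 28.5 CPM after MC (-0.05 ± 0.09). NUBPL, which delivers iron-sulfur clusters to the complex, had 13.6, 17.6 and 16.3 CPM against 15.6, 14.2 and 13.4 CPM (-0.13 ± 0.12). FOXRED1, a flavin-binding late factor, had 28.1, 25.6 and 19.1 CPM against 20.4, 22.1 and 21.3 CPM. Control replicate 3 was the lowest library for FOXRED1 and the others of its group the highest. Its change was -0.19 ± 0.12. Without control replicate 3 it was -0.32 with an edgeR adjusted p of 0.0314, and without control replicate 1 it was -0.07 with an edgeR adjusted p of 0.644.

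Some complex I genes share a short intergenic stretch with a neighbour on the other strand. Of the 51 members, 27 had such a partner with starts within 1000 bases, in 28 pairs. Partners of any gene type were counted, microRNA and tRNA genes among them. The share of all genes with such a partner was not measured, so 27 is no trait of these members. Of the 28 partners 18 were tested, and 16 of these were protein-coding. In 5 of those 16 the complex I gene was called. NDUFAF2 and ERCC8 were the only pair in which both were called in the same direction. NDUFS1 fell while EEF1B2, a translation elongation factor subunit that starts 165 bases away, went from 242 ± 20.8 to 276 ± 14.8 CPM (0.19 ± 0.06, edgeR adjusted p = 0.0314). NDUFAF6 changed by -0.05 and was not called, while CCNE2, the cyclin E2 gene that starts 598 bases away, went from 69.9 ± 6.35 to 23.7 ± 2.44 CPM (-1.56 ± 0.09, edgeR adjusted p = 1.73e-09).

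The tested partners of the other called members did not pass the test. IK beside NDUFA2 changed by -0.14 ± 0.08, RNF113A beside NDUFA1 by 0.21 ± 0.13, and TSSK6 beside NDUFA13, with at most 21 counts in a library, by 1.07 ± 0.43. Each had the same fitted direction as its complex I neighbour.

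**Figure D3:**
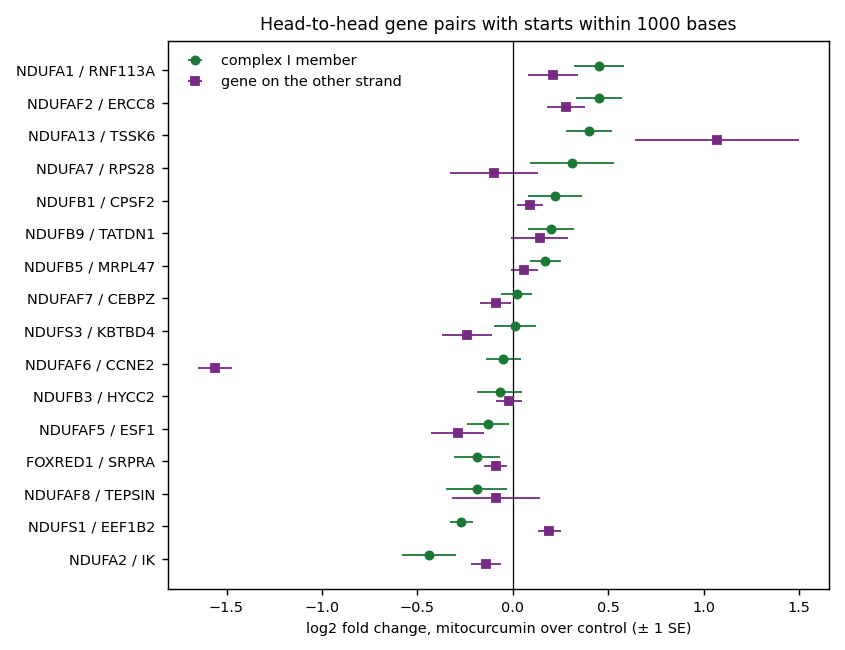
Log2 fold change of complex I genes and of their tested protein-coding neighbours on the opposite strand with starts within 1000 bases (x axis, MC over control; bars ± 1 SE; 16 pairs in rows). CCNE2 lies at -1.56 beside NDUFAF6 at -0.05, and NDUFS1 and EEF1B2 lie on opposite sides of 0.

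Copies of the members and overlapping rows bear on which reads were counted. The table had 70 rows of NDUF pseudogenes, of which 69 were at 0 in every library and NDUFAF4P1 had 4 to 12 counts. The readthrough row NDUFC2-KCTD14 covers NDUFC2 and may share its reads; it changed by -0.13 and NDUFC2 by -0.04, neither of them called. NDUFA4L2, a relative of NDUFA4, was too low to test. Of the members, 13 overlap another tested row, and whether the counting used the strand of the reads was not given in the sources used here.

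Among themselves the members spanned a wide range of control levels. Per kilobase of the principal transcript, NDUFS5 stood highest at 132 CPM per kilobase, followed by NDUFV2 at 112 and NDUFA12 at 68.1. NDUFAF5 and NDUFAF3 stood lowest at 2.73 and 2.84. The lengths came from GENCODE v29, as the median where a gene had several principal transcripts of the same rank. The isoforms in use were not known.

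Change was compared with transcript length. Over the 51 members Spearman's rho between length and log2 fold change was -0.39 (below 0 where shorter transcripts had the higher change), and over 13846 protein-coding genes it was -0.10. It was -0.22 over the 38 subunits and 0.06 over the 13 assembly factors, whose median length was 2012 bases against 944 for the subunits. The points share their libraries, and no test was made. Separately, the deviation of control replicate 1 from the other controls went with GC content, with rho = 0.65 over the members and 0.55 over the protein-coding genes. Without this library the rho with length was -0.41 over the members, -0.21 over the subunits, -0.47 over the assembly factors and -0.15 over the protein-coding genes.

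**Figure D4:**
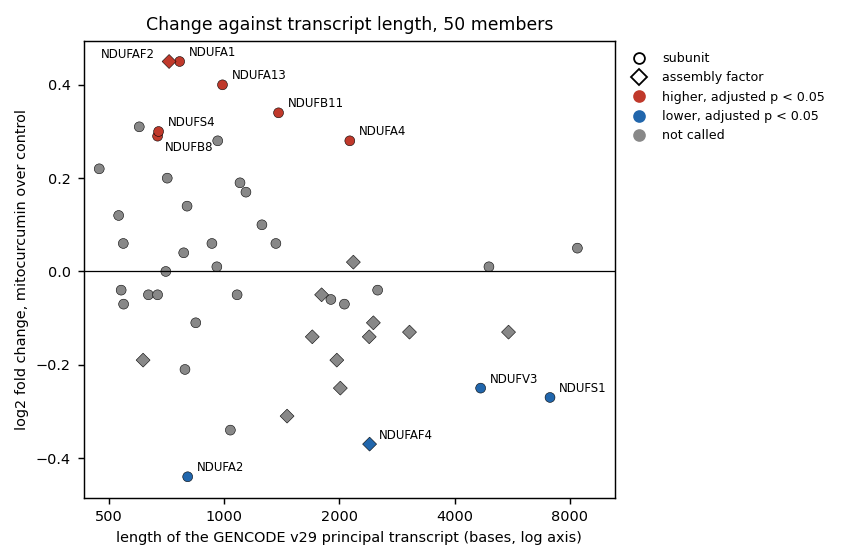
Log2 fold change, MC over control (y axis), against length of the principal transcript in bases (x axis, log scale) for 50 of the 51 members, with colour for the call and shape for subunit or assembly factor. Where a gene had several principal transcripts of the same rank, the length is their median. Lengths run from 472.5 to 8363 bases, with rho = -0.39 over all 51 members, -0.22 over subunits and 0.06 over assembly factors.

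Single libraries decided several of these calls. Control replicate 3 was the lowest of the controls for 29 of the 51 members, and MC replicate 1 the lowest of the MC libraries for 28. Leaving out control replicate 3 left 1 of the 6 subunit rises, NDUFS4. Leaving out MC replicate 2 or 3 also left 1, NDUFB8 in each case. The column header of MC replicate 2 carries a number outside the run of the other libraries. What that number stands for is not given, and its part in the results was not tested. NDUFB8 and NDUFS4 were called in 14 of the 16 alternatives, NDUFAF4, NDUFV3, NDUFA4 and NDUFA13 in 13, NDUFA2 and NDUFA1 in 12, and NDUFB11 in 11.

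**Figure D5:**
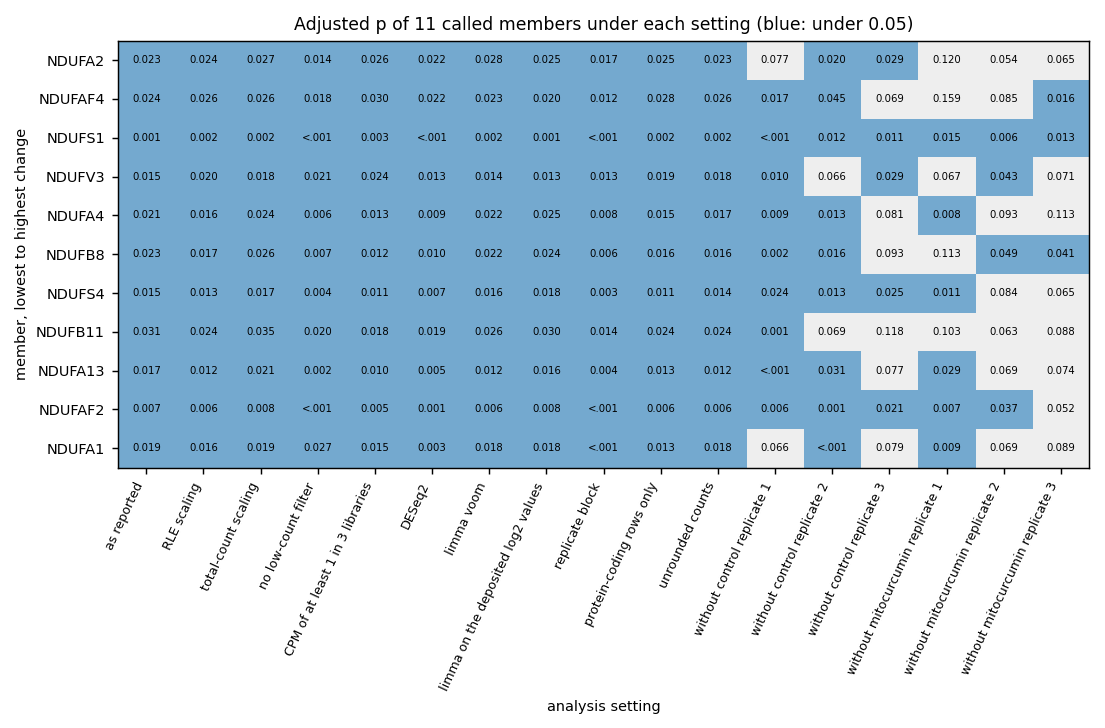
Grid of adjusted p-values for 11 called members (rows, lowest to highest change) under the reported analysis and each of 16 alternatives (columns), with blue cells under 0.05. NDUFS1 is under 0.05 in every column, and NDUFAF2 in all but the one without MC replicate 3.

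Other genes that serve complex I were read from lists drawn up with earlier results known. Calls in these lists stand beside 14.7% higher and 17.8% lower among all genes tested. Of 8 further assembly factors, AIFM1 fell and 7 were not called. AIFM1, a mitochondrial flavoprotein needed for complex I and known for its release in cell death, went from 62.9 ± 4.90 to 47.2 ± 2.64 CPM (-0.41 ± 0.08, edgeR adjusted p = 0.000484). Of 13 genes of mitochondrial iron-sulfur cluster assembly, 1 rose and 1 fell, and these are partners in one enzyme. The cysteine desulfurase NFS1 went from 26.4 ± 2.41 to 19.2 ± 0.986 CPM (-0.46 ± 0.10, edgeR adjusted p = 0.00174). Its small stabilising partner LYRM4 went from 18.2 ± 0.971 to 24.5 ± 1.21 CPM (0.43 ± 0.10, edgeR adjusted p = 0.00217).

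Ubiquinone, the electron acceptor of complex I, is made by a pathway of which 1 of 11 genes was called. PDSS1, which builds the side chain, went from 18.8 ± 1.88 to 15.0 ± 1.27 CPM (-0.33 ± 0.11, edgeR adjusted p = 0.0316). Of 5 tested enzymes that also pass electrons to ubiquinone, GPD2, the mitochondrial glycerol-3-phosphate dehydrogenase, went from 126 ± 5.95 to 90.2 ± 2.41 CPM (-0.48 ± 0.06, edgeR adjusted p = 6.57e-06), and the other 4 were not called.

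Of 8 regulators of nuclear genes for oxidative phosphorylation, 2 fell (25.0%), where 17.8% of all genes tested were lower. None was called higher by edgeR, DESeq2 or limma voom (0 at an unadjusted p under 0.05 in edgeR). The other 6 were not called, among them GABPA (0.02) and YY1 (-0.05), whose motifs are given above. PPRC1, a coactivator related to PGC-1, went from 67.0 ± 7.80 to 45.4 ± 3.26 CPM (-0.56 ± 0.09, edgeR adjusted p = 8.68e-05). NRF1, nuclear respiratory factor 1, went from 21.1 ± 1.85 to 16.3 ± 1.14 CPM (-0.37 ± 0.11, edgeR adjusted p = 0.0118). The medians of these lists were 0.02 for the further assembly factors, -0.10 for iron-sulfur assembly, -0.06 for ubiquinone synthesis, 0.02 for the other ubiquinone-reducing enzymes and -0.15 for the regulators.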

How the data were processed

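RNA sequencing of 3 control and 3 mitocurcumin libraries was read from 2 tables. The first, as deposited, gave estimated counts by gene, which the fractions in its values show, and the second the authors' log2 values, which at the larger values, where this was checked, equal the first table's values over a library factor on that scale. Per the labels' protocols the libraries were stranded and poly(A)-selected. The submitters' processing notes name GRCh38, and per the file headers genes follow RefSeq. An aligner, a counter and a strand setting are not given in the sources used here.

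Estimated counts were rounded, which the design had foreseen, and fitted over all 6 libraries in R 4.3.3 with edgeR 4.0.16 (robust quasi-likelihood F-test, TMM scaling, filterByExpr with a minimum count of 10 and total of 15, 16481 genes, group as the only term). P-values were two-sided and adjusted by Benjamini-Hochberg over all genes tested; called means under 0.05. CPM used TMM-scaled totals, and each SE is the fitted log2 fold change divided by the square root of F. The biological coefficient of variation was 8.43%. The fit was tested on simulated data. Alternatives used DESeq2 1.42.0, limma 3.58.1, other scalings and filters, a replicate term, and each library left out in turn.

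The members and lists were chosen with earlier results of these data known. Genes were named if called, if core subunits or assembly factors, or if among the 3 uncalled members with the smallest adjusted p; other members appear by name for a list's calls, a level, a motif or an overlap, after their values were seen. In each further list at most 2 called genes per direction were named. TMEM126B, TMEM186 and COA1 were named beside MCIA after their values were seen. Sequences are from RefSeq's promoter table, matched by Entrez number. A promoter entry was used for 44 members. Some genes counted in the totals are not reported here by name or drawn.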

Additional observations from a re-analysis of the deposited data

How the results depend on the processing

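Changes of scaling, filter, rounding, gene type and tool left the subunits at 6 rises and 3 or 4 falls. Limma on the deposited log2 values gave 2 falling assembly factors in place of 1. At an adjusted p under 0.01, edgeR called 0 subunits higher, 1 lower, 1 assembly factor higher and 0 lower, and DESeq2 called 5 subunits higher at that threshold and limma voom 0. With 1 library left out at a time the subunit rises ranged from 1 to 6 and the falls from 1 to 3, the assembly factor rises from 0 to 1 and the falls from 0 to 2. The assembly factor median ranged from -0.17 to -0.10 and the number of genes called from 4100 to 6088. Some uncalled core subunits and assembly factors crossed 0 when a library was left out. Their ranges were -0.45 to 0.09 for NDUFAF3, -0.13 to 0.03 for NDUFAF6, -0.01 to 0.08 for NDUFAF7, -0.05 to 0.12 for NDUFS3, -0.33 to 0.03 for NDUFS8, -0.16 to 0.04 for NDUFV1 and -0.00 to 0.10 for NDUFV2. Other uncalled subunits also crossed 0 over the alternatives and are not listed. The fits with a library left out have fewer samples.

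With the replicate number as a block there were 6 rises and 4 falls among subunits, and 1 rise and 2 falls among assembly factors, NDUFAF1 being added at an edgeR adjusted p of 0.049. The labels give the numbers no meaning, and residuals of same-numbered libraries correlated by 0.101, 0.017 and -0.0101, so the pairing was not taken as given. Changes this small were called or lost with single libraries, and their precision is limited by 3 libraries a group.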
